A study of Bos taurus with 8 samples.

Results

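bta-let-7a-1, bta-let-7a-2, bta-let-7a-3, bta-let-7f-1 and bta-let-7f-2 are 5 bovine miRNA genes that encode the mature miRNAs let-7a and let-7f. They were taken by gene name and by the biotype miRNA from the deposited count table, which lists 1153 miRNA genes among 24616 genes. All 5 were listed and all 5 passed the filter of a mean above 10 reads per 1000000 gene counts (RPM), as did 120 miRNA genes in all. Small RNA was sequenced from the liver of 8 Holstein Friesian cows about 14 days postpartum, as 1 library per cow. The 4 cows in mild negative energy balance (MNEB, libraries 2M, 3M, 4M and 5M) had grass silage ad libitum, 8 kg/day of concentrate and 1 milking per day. The 4 cows in severe negative energy balance (SNEB, libraries 7S, 8S, 9S and 10S) had 25 kg/day of silage, 4 kg/day of concentrate and 3 milkings per day. Negative energy balance is the state in early lactation in which milk output takes more energy than the cow eats, so that body fat is broken down and the liver takes up the fatty acids released. Library 2M carries an MNEB title and an SNEB treatment label, and it was analysed as MNEB, with the SNEB assignment given where it moves a result.

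The let-7 miRNAs are among the most conserved in animals. They share a seed, the stretch near the 5′ end that pairs with target mRNAs, and they repress growth-promoting genes such as HMGA2, MYC, RAS genes and IGF2BP genes. In mammals they accumulate as tissues differentiate, and in stem cells the protein LIN28 blocks their maturation. let-7a and let-7f are each made from several hairpin precursors that differ outside the mature sequence. A read that holds only the mature sequence therefore aligns to every copy and was not counted for any gene, since only uniquely aligned reads were counted. The values of single copies are thus counts of the reads that could be placed on 1 copy. They are uncertain as levels of the gene, and they are not the level of mature let-7a or let-7f.

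The depth of the libraries was 21617227 to 33963761 gene counts, of which 98.7% to 99.5% fell on miRNA genes. miR-122, the defining miRNA of hepatocytes, held 60.9% to 91.9% of the miRNA counts, with the highest share in library 5M. Of the reads that aligned to the genome, 94.2% aligned uniquely in 5M and 72.9% to 79.0% in the other 7 libraries. TMM scaling gave 5M a factor of 0.270 and the others 1.09 to 1.44. The miRNAs typical of muscle summed to at most 1.96 RPM in any library. All of these but miR-206 are numbered copies of miR-1 and miR-133a, and reads that aligned to more than 1 copy were not counted. The low sum therefore does not show that muscle RNA was absent. Those of leukocytes summed to 23.3 to 869.7 RPM in MNEB and 293 to 582 RPM in SNEB. miR-143 and miR-145, typical of smooth muscle and stellate cells, summed to 2259 to 12739 RPM in MNEB and 1772 to 2838 RPM in SNEB, and their part in the values below was not tested. In whole liver tissue, fewer cells of a type and less RNA per cell cannot be told apart.

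The 5 copies differed widely in level, and 1 of them held most of the reads. bta-let-7f-2 (ENSBTAG00000029774), which RefSeq places inside the gene of the ubiquitin ligase HUWE1 and next to miR-98, was the 8th most abundant of all miRNA genes by mean RPM. Its counts were 132254, 112731, 55941 and 16691 in 2M, 3M, 4M and 5M, and 192160, 221378, 73375 and 188197 in 7S, 8S, 9S and 10S. In RPM these were 5798, 3665, 2427 and 491 in MNEB and 8889, 7760.5, 2973 and 8373 in SNEB. Libraries 7S, 8S and 10S lay above all MNEB libraries, while 9S lay below 2M and 3M, so the groups overlapped.

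bta-let-7f-1 (ENSBTAG00000029935), which lies in a cluster with bta-let-7a-1 and let-7d, ranked 30th. It stood at 309, 223, 158 and 27.2 RPM in the MNEB libraries 2M to 5M and at 545, 458, 195 and 493 RPM in 7S, 8S, 9S and 10S. Its order of libraries was that of bta-let-7f-2. The groups overlapped in the same way, with 9S below 2M and 3M.

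The let-7a copies were lower still. bta-let-7a-1 (ENSBTAG00000029981), rank 40, stood at 206, 37.4, 67.2 and 13.6 RPM in 2M, 3M, 4M and 5M and at 638, 171, 64.8 and 227 RPM in 7S, 8S, 9S and 10S. bta-let-7a-2 (ENSBTAG00000029881), rank 50 and a neighbour of miR-100, stood at 140, 39.6, 70.0 and 14.1 RPM in MNEB and at 386, 152, 59.2 and 172 RPM in SNEB. Library 7S was high in both, by more than any other library, and 3M was below 4M in both, unlike in the let-7f copies. bta-let-7a-3 (ENSBTAG00000029772), rank 115, was near the filter, with 16.4, 7.58, 6.25 and 1.56 RPM in MNEB and 23.4, 14.6, 9.93 and 16.7 RPM in SNEB. Its lowest value rests on 53 reads in 5M. RefSeq places it in a cluster with MIRLET7B and MIR3596.

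In all 5 copies the lowest library was 5M and the highest 7S, the highest MNEB library was 2M and the lowest SNEB library was 9S. These orders are not independent of each other, since the copies were read from the same libraries. Library 5M was also the lowest of the 8 for 103 of the 120 miRNA genes. From the lowest to the highest library, bta-let-7a-1 spanned 47.0-fold, bta-let-7a-2 27.3-fold, bta-let-7f-1 20.002-fold, bta-let-7f-2 18.1-fold and bta-let-7a-3 15.0-fold. Without 5M the same copies spanned 17.1-fold, 9.74-fold, 3.44-fold, 3.66-fold and 3.74-fold, so that bta-let-7a-1 and bta-let-7a-2 spread the most with and without this library. As a comparison from the same seed family, the uniquely placed let-7c spanned 4.99-fold over 8 libraries and 1.94-fold without 5M.

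**Figure D1:**
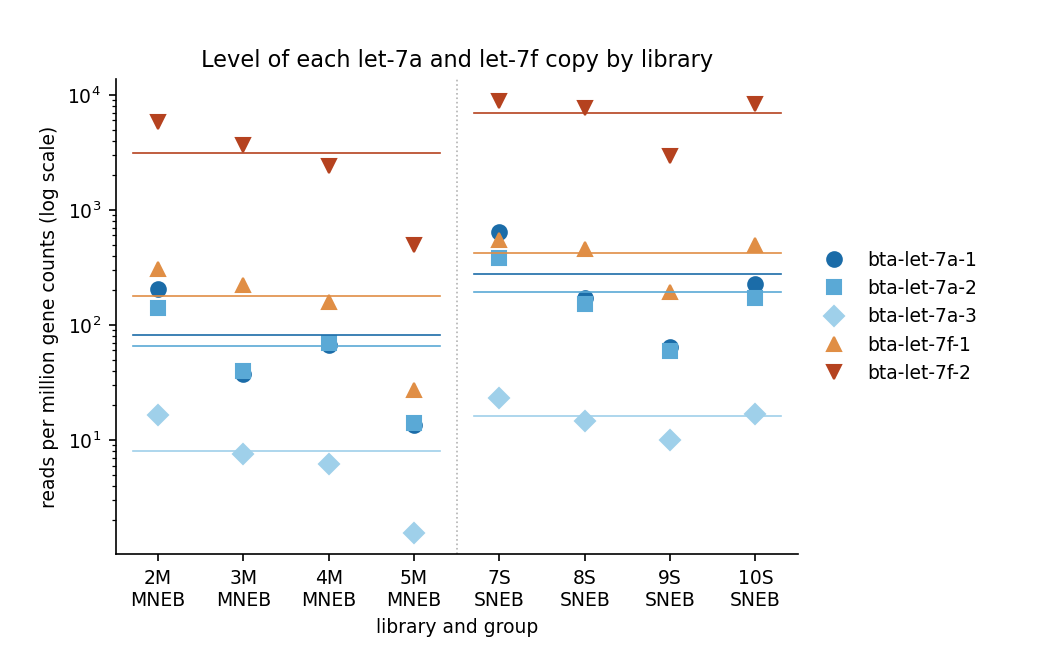
The level of each of the 5 copies in RPM (log scale) in each library, with MNEB on the left and SNEB on the right. Horizontal lines are group means, and 5M is the lowest and 7S the highest library for every copy.

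The design allows the copies to be set against each other within a library, where depth cancels out. Of the reads placed on a let-7f copy, bta-let-7f-2 held 93.9% (9S) to 94.9% (2M), and the 95% Wilson interval in a single library was widest in 5M, at 94.4% to 95.1%. The mean share was 94.5% ± 0.480 in MNEB and 94.2% ± 0.271 in SNEB (SD, n = 4 each). The share spanned about 1 percentage point while the number of let-7f reads ranged from 17616 to 234444. The intervals of 2M (94.8% to 95.1%) and 4M (93.7% to 94.1%) did not overlap, but they treat each read as independent.

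The let-7a reads were divided less evenly over the libraries. bta-let-7a-1 held 56.9%, 44.2%, 46.8% and 46.4% of the let-7a reads in 2M, 3M, 4M and 5M and 60.9%, 50.7%, 48.4% and 54.6% in 7S, 8S, 9S and 10S. bta-let-7a-2 held 36.8% (7S) to 48.8% (4M), and bta-let-7a-3 held 2.23% (7S) to 8.95% (3M). In 7S, with the most let-7a reads, the interval of the bta-let-7a-1 share was 60.3% to 61.6%, and in 3M it was 42.3% to 46.1%. Such intervals treat each read as independent, and they are too narrow where duplicates made by PCR were counted too.

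The ratio of bta-let-7f-2 to bta-let-7f-1 was 18.8, 16.4, 15.3 and 18.04 in 2M, 3M, 4M and 5M, and 16.3, 16.9, 15.3 and 17.0 in 7S, 8S, 9S and 10S. On the log2 scale of RPM its SD over the 8 libraries was 0.101. Among the 7140 pairs that the 120 miRNA genes form, this was the smallest SD, ahead of miR-17 and miR-30c at 0.158, and the median pair had an SD of 0.997. It also ranked 1 among the 34191 pairs of miRNA genes with a read in every library, and it ranked 2 without library 5M. The 2 genes are not neighbours in the RefSeq annotation, but both encode let-7f, and the cause of the steady ratio was not tested.

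bta-let-7a-1 and bta-let-7a-2 were the next closest pair among the copies. Their ratio was 1.48, 0.944, 0.960 and 0.960 in MNEB and 1.65, 1.13, 1.095 and 1.32 in SNEB, and its SD of 0.31 on the log2 scale ranked 54 of 7140. The ratio was highest in 7S and 2M, the libraries with the most let-7a RPM in their groups. Over the 8 libraries, bta-let-7a-3 kept a steadier ratio to the let-7f copies than to the other let-7a copies. Its SD was 0.38 against bta-let-7f-2 and 0.40 against bta-let-7f-1, compared with 0.54 against bta-let-7a-2 and 0.78 against bta-let-7a-1. These SDs had 0.5 RPM added to each value, which weighs on a copy at 1.56 RPM in 5M. With 0.5 counts added instead, they were 0.31, 0.33, 0.52 and 0.74 in the same order.

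**Figure D2:**
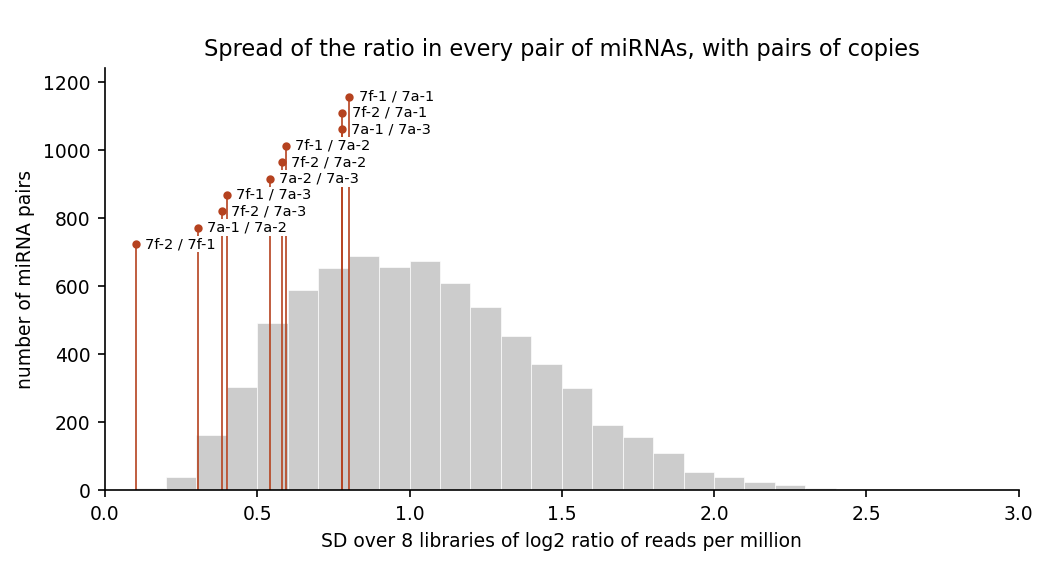
SD over the 8 libraries of the log2 ratio of RPM (x axis) for each pair of the 120 miRNA genes (grey histogram, number of pairs on the y axis). Red lines mark the pairs of copies, whose heights only separate the labels, and the pair of let-7f copies lies at 0.101, left of all other pairs.

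Between the families the ratios were looser. bta-let-7a-1 and bta-let-7f-1, which lie in 1 cluster with let-7d in the RefSeq annotation, stood at a ratio of 0.668, 0.168, 0.425 and 0.498 in 2M, 3M, 4M and 5M and of 1.17, 0.373, 0.333 and 0.460 in 7S, 8S, 9S and 10S. Library 3M was low and 7S high. The reads placed on let-7f were 9.01 times (7S) to 45.9 times (3M) those placed on let-7a. Among the RefSeq neighbours, bta-let-7f-1 was 0.0834 to 0.207 of let-7d and bta-let-7f-2 was 23.6 to 97.8 times miR-98.

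**Figure D3:**
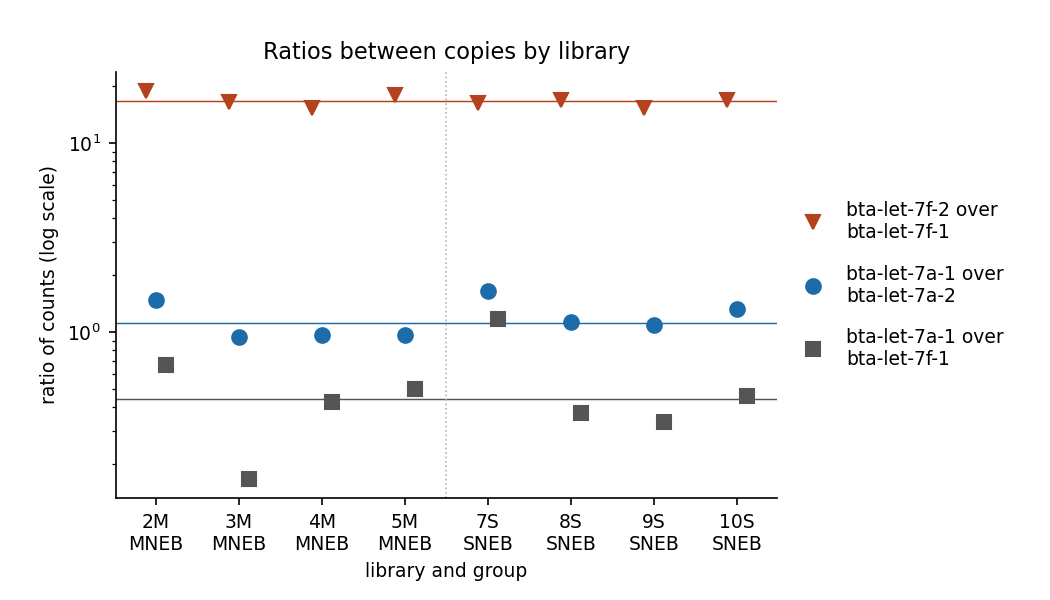
Ratios of counts (log scale) between copies in each library, with a line at the median of the 8 libraries. bta-let-7f-2 over bta-let-7f-1 stays between 15.3 and 18.8, while bta-let-7a-1 over bta-let-7f-1 runs from 0.168 in 3M to 1.17 in 7S.

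Of 15 ratios among the copies and to let-7c compared between SNEB and MNEB, none passed (two-sided exact permutation tests over 70 assignments, Benjamini-Hochberg adjusted p of at least 0.429). With 4 libraries per group the smallest p a single ratio can reach is 0.0286. After adjustment over the 15 ratios, 1 ratio at this p could not pass alone. The lack of a call therefore does not show that the ratios were equal in the groups. The ratio of bta-let-7f-2 to bta-let-7f-1 was 17.1 ± 1.55 in MNEB and 16.4 ± 0.793 in SNEB (SD, n = 4 each, exact permutation p = 0.4, adjusted p = 0.6). That of bta-let-7a-1 to bta-let-7a-2 was 1.09 ± 0.261 and 1.30 ± 0.257 (exact permutation p = 0.2, adjusted p = 0.5). The smallest p belonged to bta-let-7a-3, bta-let-7f-1 and bta-let-7f-2 over let-7c, with log2 differences of 0.73, 0.93 and 0.87 (exact permutation p = 0.0857 each, adjusted p = 0.429). For bta-let-7f-2 over let-7c the values were 0.405, 0.347, 0.295 and 0.154 in 2M, 3M, 4M and 5M and 0.710, 0.487, 0.321 and 0.645 in 7S, 8S, 9S and 10S. Only 9S among the SNEB libraries lay inside the MNEB range. With 2M counted as SNEB no ratio passed either. The log2 difference of bta-let-7a-3 over let-7c was then 0.92 (exact permutation p = 0.0179, adjusted p = 0.201), and that of bta-let-7a-1 over bta-let-7a-2 went from 0.27 to 0.46 (exact permutation p = 0.0357, adjusted p = 0.201).

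The effect of energy balance on the level was asked of each copy by edgeR's quasi-likelihood test over the 120 miRNA genes. All 5 copies had higher values in SNEB and none passed the test after adjustment. bta-let-7a-1 averaged 81.2 ± 86.4 RPM in MNEB and 275 ± 251 RPM in SNEB, bta-let-7a-2 65.9 ± 54.4 and 192 ± 138 RPM, and bta-let-7a-3 7.96 ± 6.22 and 16.1 ± 5.59 RPM. bta-let-7f-1 averaged 179 ± 119 and 423 ± 156 RPM, and bta-let-7f-2 3095 ± 2225 and 6999 ± 2723 RPM (SD, n = 4 in each group). In each copy at least 1 MNEB library lay within the SNEB range.

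The log2 fold change of SNEB over MNEB was 1.65 (SE 0.73) for bta-let-7a-1, 1.38 (SE 0.61) for bta-let-7a-2, 0.83 (SE 0.54) for bta-let-7a-3, 1.11 (SE 0.50) for bta-let-7f-1 and 1.04 (SE 0.49) for bta-let-7f-2. The edgeR adjusted p was 0.317, 0.317, 0.582, 0.335 and 0.337. The test called 0 of the 5 copies at an adjusted p under 0.05, beside 0% of all 120 miRNA genes. At an unadjusted p under 0.05, 3 of the 5 copies were higher in SNEB (bta-let-7a-1, bta-let-7a-2 and bta-let-7f-1), beside 4.17% of the 120 miRNA genes, which is 5 genes. In all 16 of the 120 had an unadjusted p under 0.05 in either direction. edgeR's exact test and limma voom also called none, and DESeq2 called 1 of 120, miR-143, a miRNA of smooth muscle.

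The median log2 fold change of the 120 miRNA genes was -0.20 with TMM scaling, with 44 of them above 0, and 0.06 without scaling. The copies lay above that median in the main fit and in every alternative. Leaving out 7S lowered bta-let-7a-1 from 3.13-fold to 1.73-fold and bta-let-7a-2 from 2.61-fold to 1.74-fold, and leaving out 2M raised them to 6.40-fold and 4.26-fold. Without 2M bta-let-7a-3 went from 1.78-fold to 2.74-fold. With 2M counted as SNEB, the edgeR test called 1 of the 120 miRNA genes after adjustment, miR-143, and none of the 5 copies. bta-let-7a-1 was then 5.33-fold higher in SNEB (edgeR adjusted p = 0.0794). All 5 copies were then higher in SNEB at an unadjusted p under 0.05, beside 6.67% of the 120 miRNA genes. The genes under this p in either direction rose from 16 to 30.

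The other named let-7 genes, among them miR-3596, which the paper places in the let-7 family, had smaller values. Their log2 fold changes were 0.68 (SE 0.45) for let-7d, 0.55 (SE 0.45) for miR-98, 0.39 (SE 0.30) for miR-3596 and 0.14 (SE 0.38) for let-7c. let-7e, let-7g and let-7i were at -0.03, -0.14 and -0.28, and none of the 7 passed. Whether the copies differ from these genes in response was tested only for let-7c, by the ratios above. Among the other miRNAs with at least 2 numbered copies listed, 7 genes passed the filter, of which 3 lay above 0, with a median of -0.12. The 4 of these with the most reads, miR-194-2, miR-101-2, miR-128-1 and miR-365-1, were at -0.51 (SE 0.46), -0.95 (SE 0.59), -0.12 (SE 0.47) and 0.84 (SE 0.58). miR-365-2 was at 1.36 (SE 0.60, edgeR adjusted p = 0.317), as high as bta-let-7a-2, so a value of this size was not particular to the let-7 copies.

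**Figure D4:**
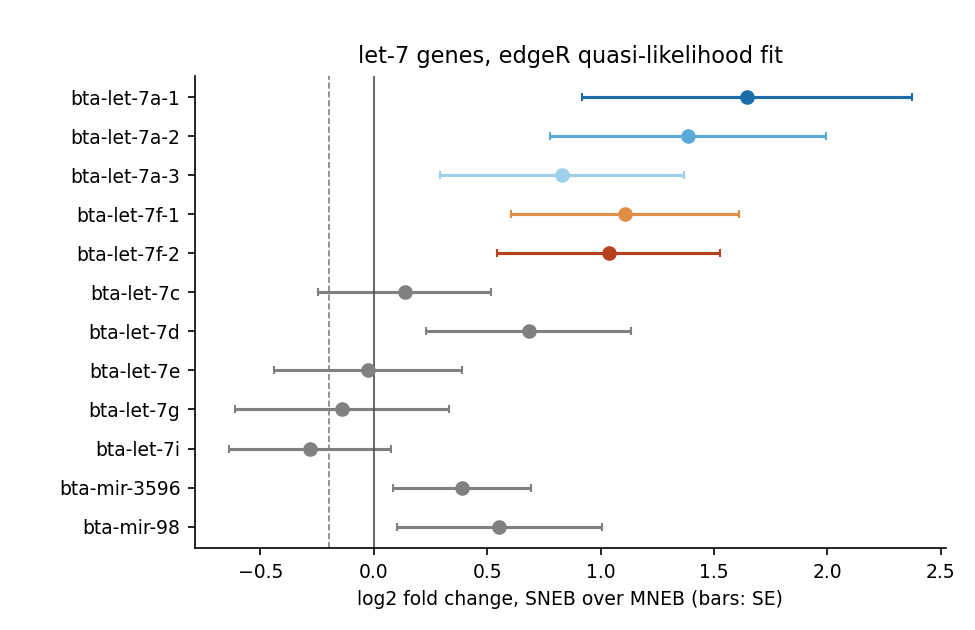
Log2 fold change of SNEB over MNEB with its SE for the 5 copies (coloured) and the 7 other named let-7 genes (grey) from edgeR's quasi-likelihood fit. The solid line is at 0 and the dashed line at -0.20, the median of the 120 miRNA genes, and the copies lie from 0.83 to 1.65.

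Since a copy is counted only from uniquely aligned reads, its values were set beside each library's unique alignment rate, the share of aligned reads that aligned to 1 place. The rate was 76.7%, 76.8%, 79.0% and 94.2% in 2M, 3M, 4M and 5M and 73.5%, 72.9%, 77.2% and 73.1% in 7S, 8S, 9S and 10S. It averaged 81.7% ± 8.42 in MNEB and 74.2% ± 2.02 in SNEB (SD, n = 4 each, two-sided exact permutation p = 0.0857). Without 5M the difference was -3.38 percentage points (exact permutation p = 0.114), and with 2M counted as SNEB the exact permutation p was 0.0357. The mean rate was lower in SNEB without passing the test, and its part in the values of the copies was not tested.

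By this rate the libraries fell into separate sets. The lowest 3 were 8S, 10S and 7S, at 72.9% to 73.5%, the next 4 were 2M, 3M, 9S and 4M, at 76.7% to 79.0%, and 5M stood alone. The relation was tested over the 7 libraries other than 5M, by the correlation of log2 RPM with the rate under two-sided exact permutation of the 5040 pairings and with adjustment over the 5 copies. For bta-let-7f-1 Pearson's r was -0.954 (n = 7, exact permutation p = 0.00317, adjusted p = 0.0159), and for bta-let-7f-2 it was -0.931 (exact permutation p = 0.00754, adjusted p = 0.0188). Within the lowest 3 libraries the order was the reverse, as given below. Their Spearman's rho was -0.857 each (exact permutation p = 0.0238, adjusted p = 0.0595), which did not pass. The let-7a copies did not pass either, with r of -0.697 for bta-let-7a-1, -0.722 for bta-let-7a-2 and -0.792 for bta-let-7a-3 (exact permutation p = 0.0956, 0.0806 and 0.0510, adjusted p = 0.0956, 0.0956 and 0.0850). Their rho was -0.607, -0.714 and -0.714 (exact permutation p = 0.167, 0.0881 and 0.0881, adjusted p = 0.167, 0.1101 and 0.1101).

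These correlations have limits. All 5 copies had r below 0, beside 32.5% of the 120 miRNA genes, whose median r was 0.433, and miR-122 was at -0.791. An r below -0.9 was found for 3 of the 120, which were bta-let-7f-1, bta-let-7f-2 and let-7d. The permutation test was run on the 5 copies only, so the share of all miRNA genes that would pass it is not known. Of the 7 other let-7 genes, let-7d (-0.911), let-7g (-0.849), let-7c (-0.784) and miR-98 (-0.449) were below 0, and let-7i (0.792), miR-3596 (0.255) and let-7e (0.0928) were above 0. Without 8S and 10S, the libraries farthest from the median rate, r was -0.954 for bta-let-7f-1, -0.915 for bta-let-7f-2, -0.783 for bta-let-7a-1, -0.769 for bta-let-7a-2 and -0.871 for bta-let-7a-3 (n = 5). Without 4M none of the 5 passed, with r of -0.929 and -0.888 for bta-let-7f-1 and bta-let-7f-2 (exact permutation, adjusted p = 0.104 each). The 7 libraries form a set of 3 and a set of 4 by rate, neither of which holds 6 libraries, so r was not computed within a set. The set of 3 is all SNEB and the set of 4 holds 3 MNEB libraries, so the rate largely coincides with energy balance, and the part of either was not tested.

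As a description, the RPM values in the 3 lowest-rate libraries lay above the 5 others for 3 of the 5 copies, bta-let-7a-2, bta-let-7f-1 and bta-let-7f-2. The same held for 9 of the 120 miRNA genes, or 7.5%, among them let-7d and let-7g. For bta-let-7a-1 and bta-let-7a-3, 2M lay above 8S. Without 2M, or without 8S, all 5 copies were separated in this way, beside 16 of the 120 miRNA genes (13.3%) in either case.

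The size of the step can be read from the medians. bta-let-7f-2 had a median of 8373 RPM in the 3 lowest-rate libraries and of 3319 RPM in the next 4, a ratio of 2.52. The ratio was 2.36 for bta-let-7f-1, 3.43 for bta-let-7a-1, 2.66 for bta-let-7a-2 and 1.91 for bta-let-7a-3. It was 1.31 for let-7c, 1.30 for let-7g, 1.21 for let-7d and 0.686 for let-7i, and its median over the 120 miRNA genes was 0.869. Within the next 4 libraries bta-let-7f-2 was lower where the rate was higher (5798, 3665, 2973 and 2427 RPM from 2M to 4M), and within the lowest 3 it was the reverse (7760.5, 8373 and 8889 RPM from 8S to 7S). bta-let-7f-1 had the same order in both sets. The let-7a copies did not keep the order in the next 4 libraries. From 2M to 3M, 9S and 4M, bta-let-7a-1 stood at 206, 37.4, 64.8 and 67.2 RPM, bta-let-7a-2 at 140, 39.6, 59.2 and 70.0 RPM and bta-let-7a-3 at 16.4, 7.58, 9.93 and 6.25 RPM, with 3M below 9S in each.

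Relative to let-7c the step was smaller. The ratio of medians of the lowest 3 to the next 4 libraries was 2.30 for bta-let-7a-1, 1.78 for bta-let-7a-2, 1.41 for bta-let-7a-3, 1.81 for bta-let-7f-1 and 1.93 for bta-let-7f-2. On this scale bta-let-7f-1 and bta-let-7f-2 were separated and the let-7a copies were not, beside 1.68% of the 119 miRNA genes other than let-7c, which is these 2 genes, and 5M was no longer the lowest library for bta-let-7a-1 and bta-let-7a-2.

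Reads that aligned to more than 1 place outnumbered the reads placed on the copies in each library. They were 5.76% of aligned reads in 5M and 21.0% to 27.1% in the others. For each read on 1 of the 5 copies there were 34.96 (7S) to 113 (5M) such reads in the library, from whatever gene they came. How many of them were let-7a or let-7f was not analysed here. The copies held 1.98% to 8.13% of the reads placed on the 12 named let-7 genes. Most of these reads fell on miR-3596 (1671201 in 2M and 3260358 in 9S), so this share depends on counting it among them. The paper places miR-3596 in the let-7 family, but the sequence it lists does not start like that of let-7c, whereas the reverse complement does. The listed sequence thus lacks the shared seed, yet miR-3596 is counted among the other let-7 genes throughout.

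**Figure D5:**
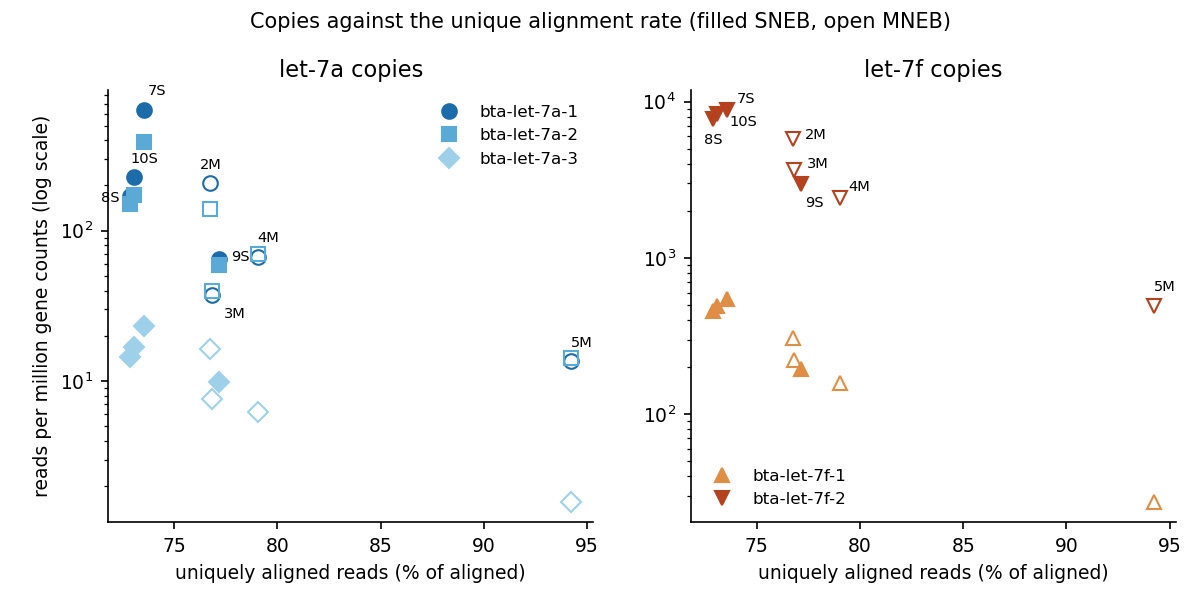
RPM of the let-7a copies (left) and of the let-7f copies (right) on a log scale against the unique alignment rate of the library in percent. Filled symbols are SNEB and open ones MNEB, and 8S, 10S and 7S, with rates of 72.9% to 73.5%, hold the 3 highest values of bta-let-7f-2, bta-let-7f-1 and bta-let-7a-2, while 5M at 94.2% holds the lowest value of every copy.

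The genes with the most similar pattern were sought among the 120 miRNA genes by Pearson's r of log2 RPM over the 8 libraries, as a description. The points of a pair come from the same libraries and share their depth and the low values of 5M. bta-let-7f-1 and bta-let-7f-2 were each other's closest gene (r = 0.997, and 0.994 over 7 libraries without 5M), as were bta-let-7a-1 and bta-let-7a-2 (0.995 and 0.995). bta-let-7a-3 was closest to bta-let-7f-2 over 8 libraries (0.976), but not without 5M, where its r was 0.918 with bta-let-7f-2, 0.935 with bta-let-7a-1 and 0.981 with miR-342. Outside the copies, miR-342 was close to bta-let-7f-1 (0.981, and 0.969 without 5M) and to bta-let-7a-3 (0.965 over 8 libraries). Over 8 libraries miR-452 was the closest of these to bta-let-7a-2 (0.958, and 0.913 without 5M) and to bta-let-7a-1 (0.929), and miR-221 to bta-let-7f-2 (0.974). Without 5M this order was not kept for the latter copies, since bta-let-7a-1 had an r of 0.871 with miR-452 and 0.877 with miR-26a-2, and bta-let-7f-2 had 0.898 with miR-221 and 0.968 with miR-342.

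Fragments of mRNAs in the same libraries gave little on the let-7 pathway. Of 26 genes listed for let-7 biogenesis and targets, 24 were in the table and 9 had a read in every library. None of the 9 passed edgeR's quasi-likelihood test (smallest adjusted p = 0.661), beside 0.839% of the 4887 protein-coding genes tested. The regulators LIN28A and LIN28B and the targets HMGA2, IGF2BP1 and IGF2BP2 had 0 reads in all libraries, which allows up to 3 counts or 0.139 RPM in a library. The most reads fell on MYC, a let-7 target, with 167 over the 8 libraries, on IRS2, an adaptor of insulin signalling, with 161, and on AGO2, the slicer protein that holds the miRNA, with 126. The log2 fold change was -0.17 (SE 0.50) for MYC, 0.49 (SE 0.42) for IRS2 and -0.18 (SE 0.48) for AGO2. Small RNA libraries are selected for length, so these fragments are not mRNA levels.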

How the data were processed

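Small RNA was sequenced from 8 liver libraries. The deposited table gives, per Ensembl gene, the count of reads with a unique alignment. The authors trimmed adaptors with cutadapt 1.1, checked reads with FastQC 0.10.0, aligned them to UMD3.1 with Novoalign 2.07.11 and counted them with HTSeq 0.5.3p3. The strand setting was not given in the sources used here. Totals (3 entries without a gene name) were left out. Library 8S was read from the column 6S, whose letter its label gives. Library 2M was grouped by its title. The averages sheet was not used. The members, gene lists and tests were chosen with earlier results of these data known.

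RPM used the total over genes as denominator, with a pseudocount of 0.5 RPM for logarithms, and 0.5 counts for the 15 ratios. Unique alignment rates were computed from the alignment totals that accompany the study, as the copies were to be related to them. The correlation with this rate left out 5M, which stands apart, and the sets of libraries by rate were described after the data were seen. Named genes were the 5 copies, the other let-7 genes, RefSeq neighbours within 10000 bp, the 3 genes most like each copy, miR-122, and the 3 pathway mRNAs with the most reads where under 3 passed. Up to 4 other numbered copies could be named. miR-143, miR-17, miR-30c and miR-365-2 were named after their values were seen.

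Groups were compared with edgeR 4.0.16 (R 4.3.3, TMM scaling, Benjamini-Hochberg adjustment), tested on simulated data, and by two-sided exact permutation tests (Python 3.11.15, numpy 2.4.6). Wilson intervals and ranks came from scipy 1.17.1. The 12 pairs of libraries within groups differed by more than sampling noise, and 0 columns of other samples were found. RefSeq names came from the ARS-UCD2.0 annotation, in which 5 of 5 copies were matched. That build differs from UMD3.1, so no coordinates are given. A count of 0 allows 3 counts. Alternatives were no scaling, RLE and upper quartile scaling, totals that leave out miR-122, 2 other filters, DESeq2 1.42.0, edgeR's exact test, limma voom 3.58.1, 2M in SNEB, other denominators, copies summed, and each library left out.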

Additional observations from a re-analysis of the deposited data

Results flagged for a closer look

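In groups of 4 libraries, 1 library stood far from the other 3 in 7 of 42 groups examined. Chance alone would give about 1 in 20 in independent groups. The groups share counts and libraries, so their number cannot be set against that rate. The ratio of bta-let-7a-1 to bta-let-7a-2 in MNEB was 1.48 in 2M, whereas 3M, 4M and 5M had 0.944 to 0.960. The remaining ratios concern library 7S among the SNEB libraries. bta-let-7a-1 over bta-let-7f-1 was 1.17 in 7S, against 0.333 to 0.460, and bta-let-7a-1 over bta-let-7f-2 was 0.0718, against 0.0218 to 0.0271. bta-let-7a-2 over bta-let-7f-1 was 0.708, against 0.304 to 0.348, and bta-let-7a-2 over bta-let-7f-2 was 0.0434, against 0.0195 to 0.0205. These 4 ratios share the let-7a reads of 1 library and are not independent. The unique alignment rate was 94.2% in 5M, against 76.7% to 79.0% in the other MNEB libraries, and 77.2% in 9S, against 72.9% to 73.5% in the other SNEB libraries.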

How the results depend on the processing

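No alternative gave a call among the 5 copies, and few gave a call among all miRNA genes tested. DESeq2 and the fit with 2M in SNEB each called 1 of 120, the fit without a filter called 1 of 480, and the others called 0. The log2 fold changes of all 5 copies stayed above 0 under all alternatives. They ranged from 0.79 to 2.81 for bta-let-7a-1, 0.80 to 2.22 for bta-let-7a-2, 0.60 to 1.46 for bta-let-7a-3, 0.88 to 1.55 for bta-let-7f-1 and 0.82 to 1.55 for bta-let-7f-2. Summed before the fit, the let-7a copies were at 1.59 (SE 0.67) and the let-7f copies at 1.104 (SE 0.50). Settings chosen after seeing the data (no libraries 2M and 5M, or no scaling and no 5M) also gave 0 calls. No ratio passed under any alternative, though with groups this small 1 ratio alone could not pass after adjustment. The log2 difference of bta-let-7f-2 over bta-let-7f-1 turned from -0.06 to 0.0225 with 2M in SNEB. With a library left out, bta-let-7a-1 over bta-let-7f-1 ranged from -0.0353 to 0.63, bta-let-7a-2 over bta-let-7f-1 from -0.24 to 0.27, and bta-let-7a-2 over bta-let-7f-2 from -0.16 to 0.31. The signs turned without 3M or without 7S (-0.03, -0.17 and -0.11 without 7S), and the cause was not tested. The number of copies whose r with the unique alignment rate passed was 2 with both other denominators, aligned reads and miRNA counts other than miR-122. It ranged from 0 (without 4M) to 2 with a library left out. With aligned reads as denominator, r was -0.949 for bta-let-7f-1 and -0.923 for bta-let-7f-2. The rate is itself made from uniquely aligned and aligned reads, so none of the denominators is independent of it. Among alternatives chosen after seeing the data, the number of copies separated by this rate was 3 with the same denominators (5% and 7.5% of the 120 miRNA genes), 2 relative to let-7c (1.68% of 119) and 3 to 5 with a library left out (7.5% to 13.3%). The rank of the let-7f ratio among all pairs was 1 or 2. Depth was lowest for bta-let-7a-3, which rests on 53 to 505 reads in a library.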
